A study of Arabidopsis thaliana with 26 samples.

Results

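SAUR-AC1 and SAUR9 are 2 of the 22810 probe sets of the Affymetrix ATH1 array, described here across every treatment of a study of brassinosteroid precursors in seedlings of Arabidopsis thaliana. They were chosen because an earlier look at these arrays had shown them higher after brassinosteroids. Their differences from mock are therefore a description with no test. SAUR-AC1 is the locus AT4G38850, which the RefSeq table (TAIR10.1) calls SAUR15, and is measured by probe set 252970_at. SAUR9 is the locus AT4G36110, measured by probe set 253103_at. Both genes are on chromosome 4. The platform table used here names no gene for either probe set, so the assignment of the genes rests on the description that chose them. Both passed the filter on dim probe sets, as did 17606 probe sets in all.

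Whole 7-day-old seedlings of the Col background (seed stock N6159, labelled de-etiolated) were treated for 3 h. Neither the labels nor the files state the genotype of this stock, and it is not assumed to be wild type. The 12 compounds were campestanol at 10 µM, 6-deoxocathasterone, cathasterone, 6-deoxoteasterone, teasterone, 3-dehydro-6-deoxoteasterone, 3-dehydroteasterone, 6-deoxotyphasterol, typhasterol and 6-deoxocastasterone at 1 µM each, castasterone at 100 nM and brassinolide at 10 nM. The last group was mock. Each of the 13 groups had 2 arrays, lettered A and B. Whether A and B came from separate cultures is not stated. The p-values therefore cover the spread between these arrays alone, and that spread may be technical.

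SAUR genes (small auxin up RNAs) encode small proteins with short-lived transcripts that auxin raises quickly in growing tissue. Several SAUR proteins bind and inhibit phosphatases of the PP2C.D group, which keeps plasma membrane proton pumps active and favours cell expansion. Brassinosteroids, the steroid hormones that end in brassinolide, are known to raise part of the same gene family, and SAUR-AC1 is a long-used marker of both hormones. Plants make brassinolide along parallel routes, with or without a ketone at C-6 of the steroid, through castasterone. No array of the series was treated with auxin, so the sharing with auxin was not measured here.

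The values are MAS5 intensities on a linear scale. Array medians lay between 33.9 and 41.0, and the arrays of a group correlated across probe sets with a median r of 0.967 (lowest 0.948). Of the 5 root markers, 4 had a named probe set, and PYK10, a root beta-glucosidase, lay between 1164 and 2357 over the arrays. No green shoot or seed marker of the lists was named by the platform table. limma called 0 of the 4 root markers changed after any of the 12 compounds, with medians against mock between -0.12 and 0.16 and 1 of 48 values at an unadjusted p under 0.05. In whole seedlings, a change in the number of cells that express a gene and a change in RNA per cell cannot be told apart.

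Both SAUR genes were dim in mock and brightest after the late brassinosteroids. SAUR-AC1 averaged 58.6 ± 0.718 after brassinolide, against 4.59 ± 3.41 in mock. SAUR9 averaged 215 ± 89.6 after brassinolide, against 10.3 ± 6.81 in mock (SD, n = 2 arrays each). Campestanol, the compound with no hydroxyl on the side chain, left both genes near mock. The other 11 compounds gave intermediate to full levels. In SAUR9 the levels spread over a wider range than in SAUR-AC1.

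SAUR-AC1 read 59.1 and 58.1 after brassinolide, and 67.0 and 53.3 after castasterone, the immediate precursor of brassinolide (array A, then B). Mock read 2.18 and 7.00 for SAUR-AC1. All 4 arrays of the late hormones were far above both mock arrays. The mock arrays lay at the 6.90 and 16.2 percentile of their own probe sets, and the brassinolide arrays at the 61.4 and 58.8 percentile. The sources used here give no detection calls, and how much of the mock reading is background was not tested.

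Among the compounds with the C-6 ketone at 1 µM, SAUR-AC1 read 65.6 and 45.6 after typhasterol, 51.2 and 26.4 after 3-dehydroteasterone, 36.6 and 45.2 after teasterone and 22.0 and 22.8 after cathasterone. Cathasterone was the lowest of these in SAUR-AC1, and 3-dehydroteasterone had the widest gap between its arrays. Among the 6-deoxo compounds SAUR-AC1 read 53.3 and 31.0 after 6-deoxocastasterone, 29.4 and 25.6 after 6-deoxotyphasterol and 56.5 and 42.2 after 3-dehydro-6-deoxoteasterone. It read 35.6 and 31.9 after 6-deoxoteasterone and 22.1 and 13.7 after 6-deoxocathasterone. Within the 6-deoxo compounds, 6-deoxotyphasterol lay under both the compound before it and the compound after it on the route. After campestanol SAUR-AC1 read 5.45 and 5.23, between the 2 mock arrays.

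On the scale of log2(intensity + 5), SAUR-AC1 after brassinolide was 2.78 ± 0.31 above mock (SE from limma, the same for each compound of this gene). The difference from mock was 2.80 for castasterone, 2.69 for typhasterol, 2.54 for 3-dehydro-6-deoxoteasterone and 2.30 each for 6-deoxocastasterone and teasterone. It was 2.18 for 3-dehydroteasterone, 2.06 for 6-deoxoteasterone, 1.81 for 6-deoxotyphasterol, 1.56 for cathasterone and 1.28 for 6-deoxocathasterone. Campestanol differed by 0.16, less than its error. SAUR-AC1 after cathasterone at 1 µM thus stood at 56.3% of its log2 change after brassinolide at 10 nM. After 6-deoxocathasterone at 1 µM it stood at 46.0%. The doses differ, so these shares do not compare the compounds, and they depend on the pseudocount.

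SAUR9 read 278 and 151 after brassinolide, and 218 and 137 after castasterone. Mock read 15.1 and 5.495 for SAUR9. The arrays of both hormones lay above both mock arrays, with array A of each above its array B. The brassinolide arrays lay at the 89.0 and 79.97 percentile of their probe sets, and the mock arrays at the 31.8 and 13.01 percentile.

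Among the compounds with the C-6 ketone at 1 µM, SAUR9 read 186 and 138 after typhasterol, 149 and 126 after 3-dehydroteasterone, 95.9 and 70.7 after teasterone and 45.3 and 32.7 after cathasterone. The SAUR9 means of these 4 compounds followed the order of the route. How many of all tested probe sets keep that order was not counted, so nothing is read from it. Among the 6-deoxo compounds SAUR9 read 171 and 95.5 after 6-deoxocastasterone, 60.5 and 43.9 after 6-deoxotyphasterol and 121 and 88.2 after 3-dehydro-6-deoxoteasterone. It read 54.1 and 47.8 after 6-deoxoteasterone and 44.7 and 28.5 after 6-deoxocathasterone. As in SAUR-AC1, 6-deoxotyphasterol lay under its neighbours on the 6-deoxo route. After campestanol SAUR9 read 15.9 and 7.89, overlapping mock.

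On the log2 scale SAUR9 was 3.85 ± 0.37 above mock after brassinolide (SE from limma, the same for each compound of this gene). The difference from mock was 3.61 for castasterone, 3.50 for typhasterol, 3.29 for 3-dehydroteasterone, 3.19 for 6-deoxocastasterone and 2.90 for 3-dehydro-6-deoxoteasterone. It was 2.59 for teasterone, 1.96 for 6-deoxotyphasterol, 1.94 for 6-deoxoteasterone, 1.58 for cathasterone and 1.49 for 6-deoxocathasterone. Campestanol differed by 0.18. SAUR9 after cathasterone at 1 µM stood at 41.0% of its log2 change after brassinolide at 10 nM. After 6-deoxocathasterone at 1 µM it stood at 38.7%. Here too the doses differ, so the shares do not compare the compounds, and they depend on the pseudocount.

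**Figure D1:**
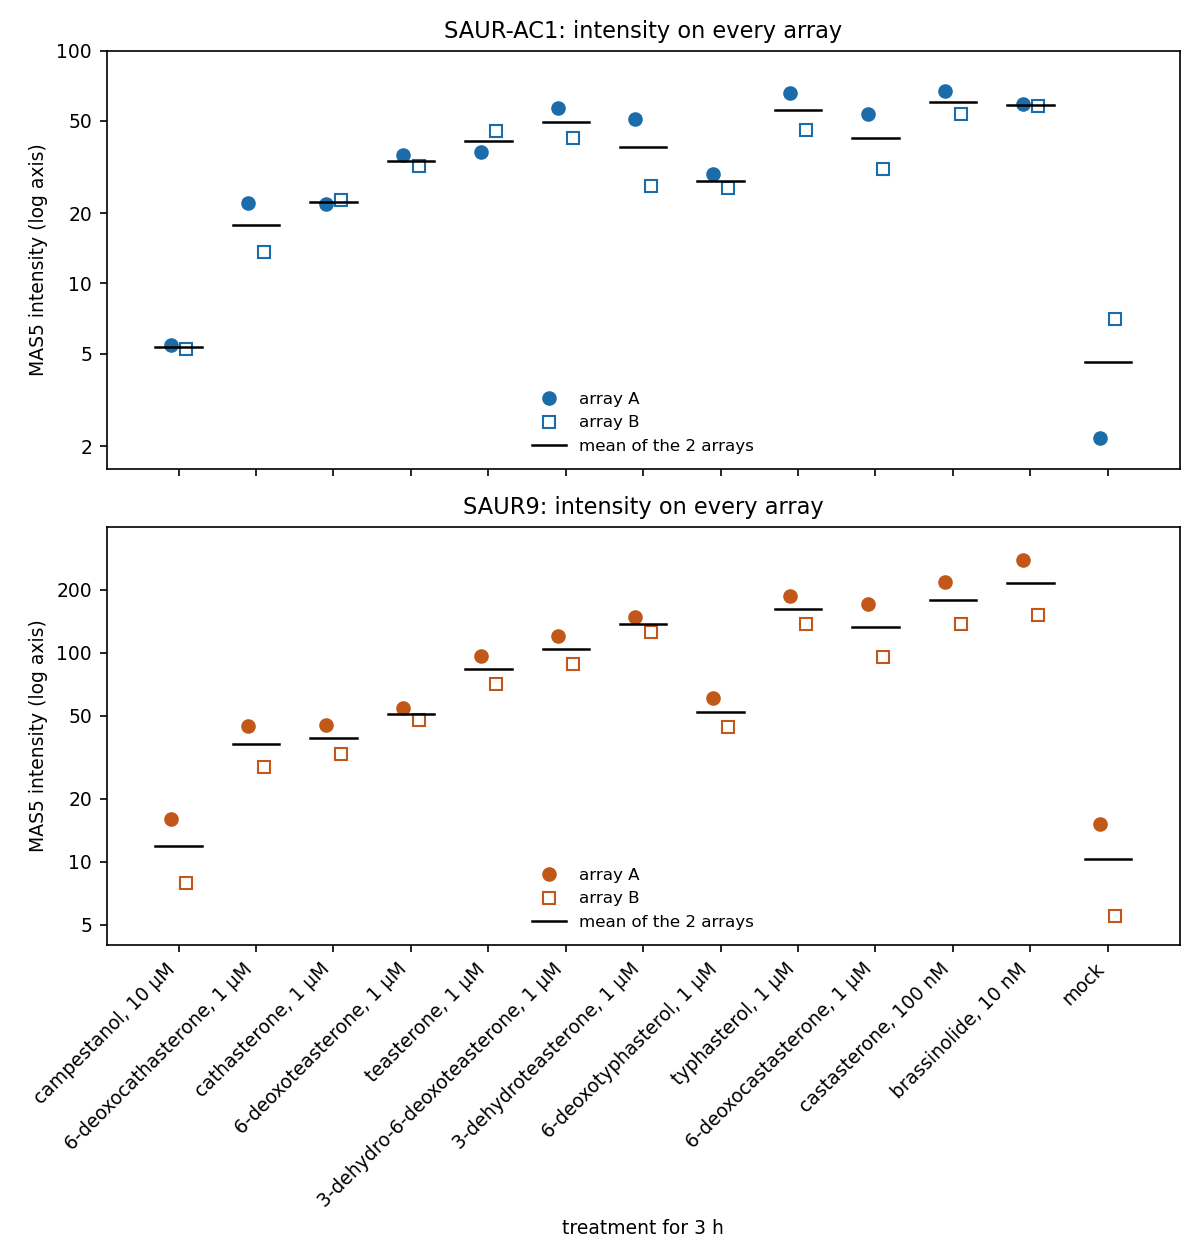
MAS5 intensity (log axis) of SAUR-AC1 and SAUR9 on each of the 26 arrays, by treatment, with mock at the right; filled points are array A, open squares array B and bars the mean of the 2. Both genes are low after campestanol and in mock and higher after the other 11 compounds, and SAUR9 has array A above array B in all 13 groups.

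For each gene, both arrays of 11 of the 12 compounds lay above both mock arrays. The share of all tested probe sets that did so was 16.4% for 6-deoxocathasterone, 16% for cathasterone, 13.5% for 6-deoxoteasterone, 14% for teasterone, 17.1% for 3-dehydro-6-deoxoteasterone and 15% for 3-dehydroteasterone. It was 14.9% for 6-deoxotyphasterol, 18.1% for typhasterol, 19.6% for 6-deoxocastasterone, 22% for castasterone and 18.8% for brassinolide. For campestanol, where neither SAUR gene did so, it was 12.9%. The 12 comparisons share the mock arrays, and the genes were chosen on these contrasts, so nothing is read from the counts.

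The limma fit called SAUR-AC1 and SAUR9 higher than mock (Benjamini-Hochberg adjusted p under 0.05 over all tested probe sets) for the same 9 compounds. These calls are on the contrasts that chose the genes, and nothing is read from them. Of all tested probe sets, 2.02% were called higher for brassinolide (2.58% in either direction), 1.78% for castasterone (2.38%), 1.57% for 6-deoxocastasterone (1.95%), 1.32% for typhasterol (1.77%) and 1.07% for 3-dehydroteasterone (1.42%). The share was 0.426% for 3-dehydro-6-deoxoteasterone (0.557%), 0.278% for teasterone (0.352%), 0.136% for 6-deoxotyphasterol (0.193%) and 0.0795% for 6-deoxoteasterone (0.165%). For campestanol, 6-deoxocathasterone and cathasterone limma called 0% of all probe sets, although 272, 573 and 563 had an unadjusted p under 0.05. Among all 17606 probe sets ordered by log2 change, SAUR9 ranked 3 for brassinolide, castasterone, 6-deoxocastasterone, typhasterol, 3-dehydroteasterone, 3-dehydro-6-deoxoteasterone and teasterone. It ranked 5 for 6-deoxotyphasterol, 7 for 6-deoxoteasterone, 8 for 6-deoxocathasterone, 9 for cathasterone and 3751 for campestanol. SAUR-AC1 ranked between 5 (6-deoxoteasterone and 3-dehydro-6-deoxoteasterone) and 19 (6-deoxocastasterone) over the 11 compounds other than campestanol, for which it ranked 4295.

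Several of these calls were lost when 1 array was left out, in fits where fewer probe sets were called in all. The differences stayed above 0. SAUR9 for 6-deoxoteasterone went from 1.94 to 1.47 without array B of mock. It went to 1.86 and 2.02 without its own array A or B. SAUR9 for 6-deoxotyphasterol went from 1.96 to 1.49 without array B of mock, and to 1.75 and 2.17 without its own array A or B. For teasterone SAUR9 went from 2.59 to 2.12 without array B of mock. SAUR-AC1 for 6-deoxotyphasterol went from 1.81 to 1.435 without array A of mock, and to 1.72 and 1.89 without its own array A or B. For 6-deoxoteasterone SAUR-AC1 went from 2.06 to 1.69 without array A of mock and to 2.13 without its own array B.

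**Figure D2:**
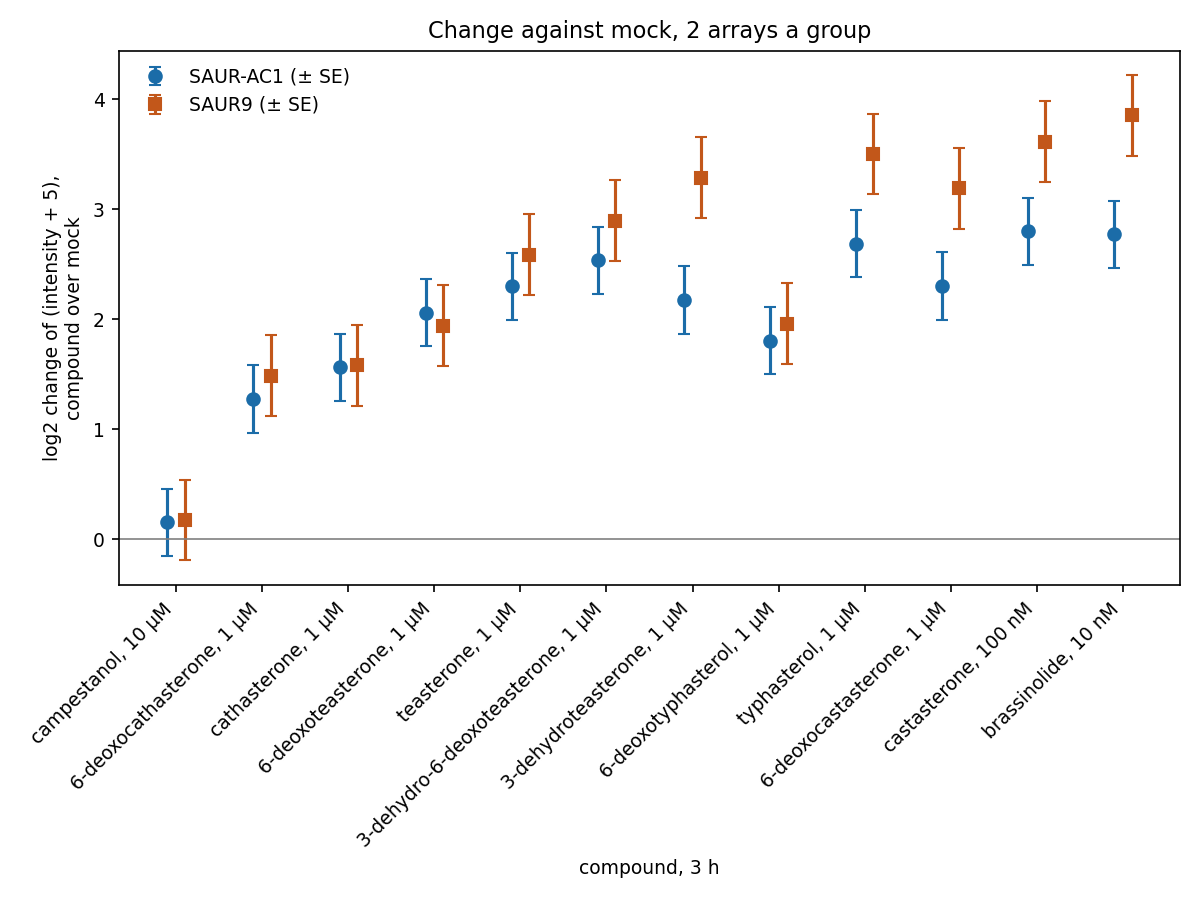
Change of SAUR-AC1 (circles) and SAUR9 (squares) against mock in log2(intensity + 5), with SE from the fit of all 26 arrays, for the 12 compounds in the order of the route. Campestanol sits at 0.16 and 0.18, and brassinolide at 2.78 and 3.85; 6-deoxotyphasterol is low beside its neighbours at 1.81 and 1.96.

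From high to low, the mean log2 level of SAUR-AC1 ran castasterone, brassinolide, typhasterol, 3-dehydro-6-deoxoteasterone, 6-deoxocastasterone, teasterone, 3-dehydroteasterone, 6-deoxoteasterone, 6-deoxotyphasterol, cathasterone, 6-deoxocathasterone, campestanol, mock. Of its neighbours in that order, only 6-deoxocathasterone and campestanol differed by more than the residual SD (1.12 against 0.31). For SAUR9 the order was brassinolide, castasterone, typhasterol, 3-dehydroteasterone, 6-deoxocastasterone, 3-dehydro-6-deoxoteasterone, teasterone, 6-deoxotyphasterol, 6-deoxoteasterone, cathasterone, 6-deoxocathasterone, campestanol, mock. Here teasterone and 6-deoxotyphasterol (0.63) and 6-deoxocathasterone and campestanol (1.31) differed by more than the residual SD of 0.37. Castasterone, brassinolide and campestanol were given at other doses than the rest, so their places in the order are levels side by side and not a comparison of compounds.

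At 1 µM, 4 pairs of compounds differ in the ketone at C-6, which the 6-deoxo compound lacks. The SAUR9 mean was higher with the ketone in each pair, and the gap was widest for typhasterol, where 186 and 138 stood against 60.5 and 43.9 after 6-deoxotyphasterol. That pair differed by 1.54 on the log2 scale (95% interval 0.77 to 2.31). The difference did not pass the adjusted test over all probe sets in the main fit, which has no term for the array letter (adjusted p = 0.639 in limma). With such a term it passed, as given in the closing section, in a fit that called 0.102% of all probe sets for this pair. For the other pairs SAUR9 differed by 0.65 (-0.12 to 1.42) between teasterone and 6-deoxoteasterone, 0.39 (-0.38 to 1.16) between 3-dehydroteasterone and 3-dehydro-6-deoxoteasterone and 0.09 (-0.68 to 0.86) between cathasterone and 6-deoxocathasterone. All 3 of these intervals of the main fit held 0. A difference shared between the array letters stays in that fit and can widen them. With a term for the letter, limma called 0% of all probe sets for each of these 3 pairs.

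SAUR-AC1 also differed most between typhasterol, at 65.6 and 45.6, and 6-deoxotyphasterol, at 29.4 and 25.6, by 0.88 (0.24 to 1.52). It differed by 0.29 (-0.35 to 0.93) for the cathasterone pair and by 0.24 (-0.40 to 0.88) for the teasterone pair. For the 3-dehydroteasterone pair the sign was the other way, at -0.36 (-0.9999 to 0.28), and the arrays overlapped. No pair passed for SAUR-AC1, with adjusted p of 1.00 for each in limma.

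Averaged over the 4 pairs, the compounds with the ketone were higher by 0.67 in SAUR9 (0.28 to 1.05; adjusted p = 0.868 in limma) and by 0.26 in SAUR-AC1 (-0.06 to 0.58; adjusted p = 1.00). An exact two-sided permutation test of this single average, with arrays relabelled within pairs (1296 relabellings), gave p = 0.00772 for SAUR9, higher in 4 of 4 pairs. The same exact test gave p = 0.179 for SAUR-AC1, higher in 3 of 4 pairs. That test was added after the data were seen, on genes chosen from these same arrays, so its p-values are a description. It takes no account of the number of probe sets or of the array letters. How many of all probe sets were higher in 4 of 4 pairs was not counted. Over all 17606 probe sets limma called 0% for each of the 4 pairs and for their average in the main fit, with between 476 and 693 at an unadjusted p under 0.05. With a term for the array letter it called 0.102% for the typhasterol pair and 0.0568% for the average. The SAUR9 average passed in that fit. The C-6 difference ranged over 1.45 among the pairs in SAUR9 and over 1.24 in SAUR-AC1, and neither passed the test of a difference among pairs (unadjusted p = 0.0627 and 0.0707, adjusted p = 1.00 for both in limma). That test called 0% of probe sets, with 466 at an unadjusted p under 0.05.

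**Figure D3:**
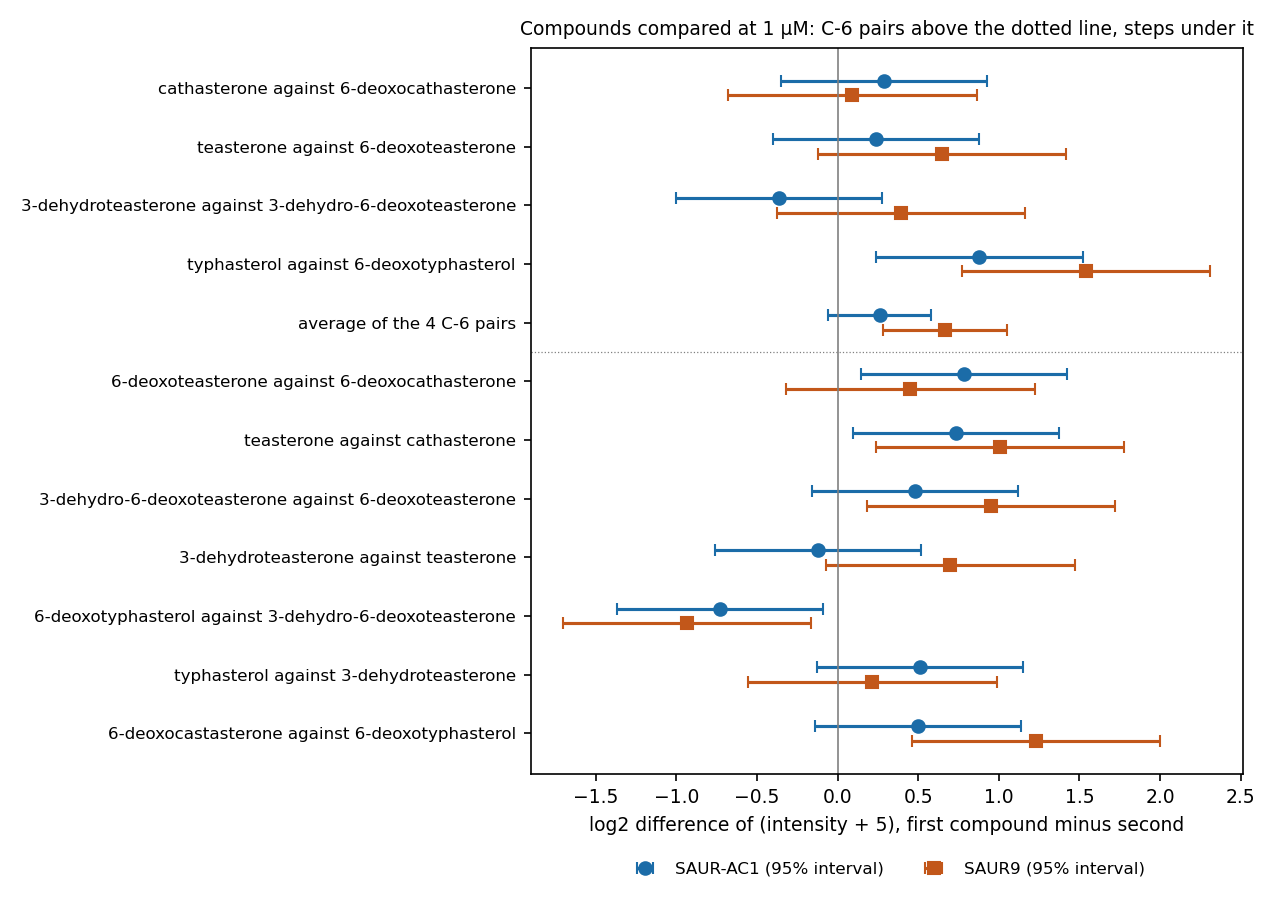
Difference of SAUR-AC1 (circles) and SAUR9 (squares) in log2(intensity + 5) with the 95% interval, first compound minus second, for pairs given at 1 µM. Typhasterol over 6-deoxotyphasterol stands highest for both genes (0.88 and 1.54), and 6-deoxotyphasterol against 3-dehydro-6-deoxoteasterone lies under 0 for both (-0.73 and -0.93).

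Successive compounds of a route, also at 1 µM, gave 7 further pairs. The hydroxyl at C-23 separates teasterone from cathasterone. SAUR9 was higher by 1.01 (0.24 to 1.78) and SAUR-AC1 by 0.74 (0.10 to 1.38) in that pair. Between 6-deoxoteasterone and 6-deoxocathasterone the differences were 0.45 (-0.32 to 1.22) in SAUR9 and 0.78 (0.14 to 1.42) in SAUR-AC1. The arrays of the later compound were above those of the earlier one in both genes and both routes, as they were for 10.6% of all tested probe sets with teasterone against cathasterone and 14.8% in the 6-deoxo pair.

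Oxidation of the hydroxyl at C-3 to a ketone gives the 3-dehydro compounds. SAUR9 was 0.95 (0.18 to 1.72) higher after 3-dehydro-6-deoxoteasterone than after 6-deoxoteasterone, and 0.70 (-0.07 to 1.47) higher after 3-dehydroteasterone than after teasterone. In SAUR-AC1 the same steps differed by 0.48 (-0.16 to 1.12) and -0.12 (-0.76 to 0.52). The SAUR-AC1 arrays of 3-dehydroteasterone, 51.2 and 26.4, spanned those of teasterone.

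Reduction of that ketone to the opposite hydroxyl gives the typhasterol forms. After 6-deoxotyphasterol both genes were lower than after 3-dehydro-6-deoxoteasterone, by -0.93 (-1.70 to -0.16) in SAUR9 and -0.73 (-1.37 to -0.09) in SAUR-AC1. The arrays did not overlap in either gene, and 17.2% of all tested probe sets were lower without overlap in this pair. After typhasterol they differed from 3-dehydroteasterone by 0.22 (-0.55 to 0.99) in SAUR9 and 0.51 (-0.13 to 1.15) in SAUR-AC1. The hydroxyl at C-2 separates 6-deoxocastasterone from 6-deoxotyphasterol. SAUR9 was higher by 1.23 (0.46 to 2.002; adjusted p = 0.716 in limma) and SAUR-AC1 by 0.50 (-0.14 to 1.14) in that pair.

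Of the 11 pairs for each gene, 0 of 22 differences passed the limma test adjusted over all probe sets in the main fit. Of these, 9 had an unadjusted p under 0.05 (5 in SAUR9 and 4 in SAUR-AC1). With a term for the array letter, SAUR9 passed for typhasterol and for 6-deoxocastasterone, each against 6-deoxotyphasterol. That fit called 0.102% of all tested probe sets for the typhasterol pair and 0.233% for the 6-deoxocastasterone pair. In the main fit limma called 0% of probe sets for 6 of the 7 steps, where between 293 and 994 had an unadjusted p under 0.05. It called 0.00568% for 6-deoxocastasterone against 6-deoxotyphasterol. These pairs share arrays with each other, and a p over the threshold does not show that compounds act alike.

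Whether a step differed between the routes was compared after the data were seen. The C-3 reduction step was higher with the C-6 ketone than without it by 1.24 in SAUR-AC1 (0.34 to 2.15; unadjusted p = 0.00974 in limma) and by 1.15 in SAUR9 (0.06 to 2.24; unadjusted p = 0.0396 in limma). Both had an adjusted p of 1.00 in limma. The C-23 step differed between routes by -0.05 (-0.95 to 0.86) in SAUR-AC1 and 0.55 (-0.54 to 1.64) in SAUR9, and the C-3 oxidation step by -0.60 (-1.50 to 0.30) and -0.25 (-1.34 to 0.84). limma called 0% of probe sets in each of these 3 comparisons, with 604 at an unadjusted p under 0.05 for the C-3 reduction step.

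The letters of the arrays went with the level of SAUR9. Array A was above array B in 13 of 13 groups, by a mean of 0.54 on the log2 scale (SD 0.238, 0.16 to 0.94). Of all tested probe sets 2.99% had array A above array B in all 13 groups, and 5.27% had array A below. In SAUR-AC1 array A was higher in 10 of 13 groups, by a mean of 0.20 (SD 0.421), between -0.74 in mock and 0.84 after 3-dehydroteasterone. A relation between the letter differences of the 2 genes over the 13 groups did not pass the test. Pearson's r was -0.37 (permutation p = 0.216, Benjamini-Hochberg adjusted 0.431 over the 2 coefficients) and Spearman's rho was -0.16 (permutation p = 0.598, adjusted 0.598). Without mock and 3-dehydroteasterone, farthest from the median in SAUR-AC1, r was 0.23 (permutation p = 0.501, n = 11). What the letters stand for is not given in the labels, and the cause of their differences was not tested. A fit with a term for the letter, given in the closing section, changed some calls. With that term 917 probe sets were called for brassinolide, against 454 without it.

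**Figure D4:**
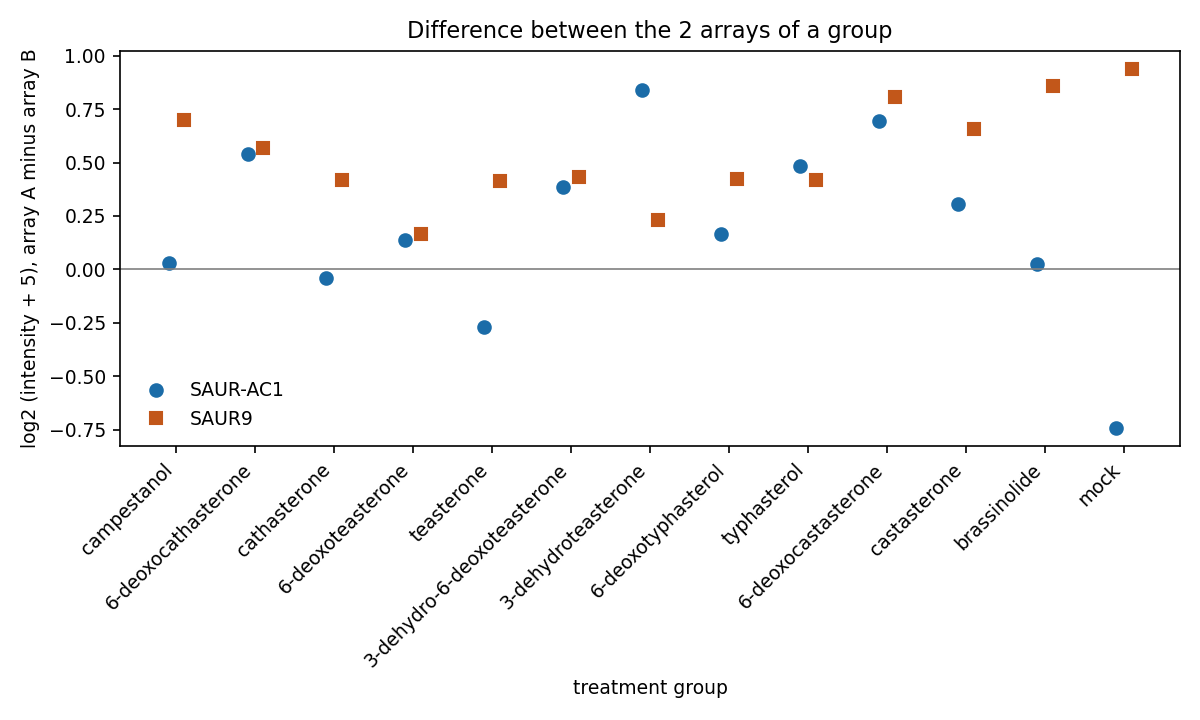
Array A minus array B in log2(intensity + 5) on the y axis for each of the 13 treatment groups on the x axis, with circles for SAUR-AC1 and squares for SAUR9. Every group is above 0 for SAUR9 (0.16 to 0.94), and mock is the lowest for SAUR-AC1 at -0.74.

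Across the 13 group means SAUR-AC1 and SAUR9 correlated with r = 0.96, a description over points that are means of 2 arrays each and include the mock arrays. SAUR9 was 13th in likeness to SAUR-AC1 among 17605 other probe sets, and SAUR-AC1 was 50th in likeness to SAUR9. Both genes were chosen for being higher after brassinosteroids on these arrays, so nothing is read from their likeness. Among probe sets that name 1 gene, the closest to SAUR-AC1 were GTR1, a glucosinolate transporter (r = 0.98), AT5G44680 (0.98), EXO, the cell expansion gene EXORDIUM (0.98), AT5G24570 (0.98) and AT1G66880 (0.97). Their log2 changes after brassinolide against mock were 0.97 ± 0.22, 1.74 ± 0.21, 2.76 ± 0.30, 2.45 ± 0.33 and 0.74 ± 0.23 (SE). Of these, EXO was nearest in size to the 2.78 of SAUR-AC1.

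The closest to SAUR9 were AT3G06770, a pectin lyase-like gene (r = 0.99), EXLA1, an expansin-like gene of the cell wall (0.98), AT5G64780 (0.98), AT4G29780 (0.98) and XTH33, a xyloglucan-modifying enzyme (0.98). Their log2 changes after brassinolide were 1.72 ± 0.15, 3.05 ± 0.46, 1.26 ± 0.27, 1.36 ± 0.24 and 2.84 ± 0.31 (SE). All 5 were smaller than the 3.85 of SAUR9. Over the 26 single arrays in place of the group means, AT5G44680 and EXO stayed among the 5 closest to SAUR-AC1, and AT3G06770 alone stayed for SAUR9.

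The rest of the auxin pathway could be followed only where the platform table names a probe set. None of the 80 SAUR loci of the RefSeq table had one, nor did the 11 plasma membrane proton pumps (AHA) or the 8 listed auxin receptors and ARF factors. In the RefSeq order SAUR-AC1 stands beside the SAUR locus AT4G38840, with AT4G38860, also a SAUR, on the other side beyond a long non-coding RNA. SAUR9 has no SAUR among the 3 genes to each side. Whether the probes of either gene also detect other SAUR transcripts was not analysed here.

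The Aux/IAA genes, repressors of auxin signalling, had 6 tested probe sets of 28 genes. IAA18 had a median intensity of 94.0 over the arrays. The medians of IAA20, IAA29, IAA30, IAA31 and IAA33 lay between 10.8 and 19.7, near the filter at 10. These 6 probe sets do not stand for the whole list. limma called 0 of 6 after any of the 12 compounds, with 0 of 72 values at an unadjusted p under 0.05. Of all tested probe sets, 6.26% of values were under it over the 12 comparisons with mock (1.54% for campestanol to 11.2% for castasterone). Their median log2 change lay between -0.02 and 0.24 over the compounds and was 0.11 for brassinolide, beside 2.78 for SAUR-AC1 and 3.85 for SAUR9. IAA29 differed from mock by -0.26 ± 0.33 after brassinolide, and the 6 spanned -0.29 (IAA20) to 0.54 (IAA31).

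The GH3 genes, which encode enzymes that conjugate auxin to amino acids, had 4 tested probe sets of 8 genes. limma called 0 of 4 after any compound, with 4 of 48 values at an unadjusted p under 0.05, beside the same 6.26% of all values, and medians between -0.15 and 0.05. GH3.3 differed from mock by 0.99 ± 0.44 after brassinolide (adjusted p = 0.435 in limma). The other tested GH3 genes went the other way, each by less than its SE. They differed by -0.17 (GH3.17), -0.11 (GH3.9) and -0.10 (WES1). The PP2C.D phosphatases, the targets of SAUR proteins, had 4 tested probe sets of 9 genes. limma called 0 of 4 after any compound, with 13 of 48 values at an unadjusted p under 0.05 (6.26% over all probe sets), a lowest adjusted p of 0.0666 and medians between -0.04 and 0.30. After brassinolide they differed from mock by between -0.50 (AT3G51370) and 0.41 (AT3G17090), while the median of all tested probe sets was -0.00050. A difference between the SAUR genes and these lists was not tested.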

How the data were processed

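The deposited table holds MAS5 signal intensities on a linear scale, 1 column for each of 26 arrays, which the authors computed in MAS5, according to the submitters' processing notes. Its version and parameters are not given there. From these, 64 control probe sets and those with a mean intensity under 10 were left out, and 17606 of 22810 were tested. The values log2(intensity + 5) were fitted in limma 3.58.1 (R 4.3.3) with 1 coefficient per group over all arrays and an intensity trend. Adjusted p-values are Benjamini-Hochberg over all tested probe sets. Fold changes on this scale understate the change of dim probe sets. The fit was tested on simulated data with independent noise on each array. That test does not cover a difference shared between the array letters. Permutation tests used scipy 1.17.1. The precision is limited by 2 arrays a group.

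The members and gene lists were chosen with earlier results of these data known. Named genes are the 2 members, the 5 most alike to each by correlation of group means among probe sets naming 1 gene, and members of the lists. The platform table named 1 gene for 13513 probe sets, of which 13436 matched the RefSeq table (TAIR10.1). No genome coordinates or sequences are used here. Other pseudocounts, filters, normalizations, fits and single arrays left out were tried.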

Additional observations from a re-analysis of the deposited data

How the results depend on the processing

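SAUR-AC1 is so dim in mock that its differences depend on the pseudocount. With a pseudocount of 1, SAUR-AC1 differed from mock by 1.87 (6-deoxocathasterone), 2.22 (cathasterone), 2.78 (6-deoxoteasterone), 3.05 (teasterone), 3.30 (3-dehydro-6-deoxoteasterone), 2.90 (3-dehydroteasterone), 2.50 (6-deoxotyphasterol), 3.47 (typhasterol), 3.05 (6-deoxocastasterone), 3.59 (castasterone) and 3.56 (brassinolide). With a pseudocount of 20 these were 0.62, 0.79, 1.13, 1.31, 1.495, 1.23, 0.96, 1.61, 1.32, 1.71 and 1.68 in the same order. SAUR9 with a pseudocount of 1 differed by 2.34 (6-deoxoteasterone), 3.03 (teasterone), 3.35 (3-dehydro-6-deoxoteasterone), 3.75 (3-dehydroteasterone), 2.36 (6-deoxotyphasterol), 3.97 (typhasterol), 3.65 (6-deoxocastasterone), 4.09 (castasterone) and 4.33 (brassinolide). With 20 it differed by 0.91 (6-deoxocathasterone), 0.97 (cathasterone), and for the same 9 by 1.24, 1.78, 2.04, 2.39, 1.26, 2.59, 2.31, 2.69 and 2.92. The direction held in each. With a pseudocount of 20, the C-23 step difference between routes in SAUR-AC1 turned to 0.0053 and the correlation of the genes' letter differences to 0.028.

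Leaving out each array in turn, SAUR-AC1 differed from mock by -0.22 to 0.53 (campestanol), 0.91 to 1.65, 1.19 to 1.93, 1.69 to 2.43, 1.93 to 2.67, 2.17 to 2.91, 1.76 to 2.60, 1.44 to 2.18, 2.32 to 3.06, 1.93 to 2.67, 2.43 to 3.17 and 2.41 to 3.15 (brassinolide), in the order of the route. SAUR9 differed by -0.29 to 0.65 (campestanol), 1.02 to 1.96, 1.11 to 2.05, 1.47 to 2.41, 2.12 to 3.06, 2.43 to 3.37, 2.82 to 3.76, 1.49 to 2.43, 3.03 to 3.97, 2.72 to 3.66, 3.15 to 4.08 and 3.39 to 4.32 (brassinolide). Near 0 the sign turned for the cathasterone pair in SAUR9 (-0.19 to 0.38), and in SAUR-AC1 for the 3-dehydroteasterone pair (-0.78 to 0.059), 3-dehydroteasterone against teasterone (-0.54 to 0.30) and the C-23 step difference (-0.32 to 0.22). Of the 22 pair values, 3 turned sign and 9 others moved by over 1.5 times: in SAUR-AC1 the cathasterone pair (0.017 to 0.56), the teasterone pair (0.11 to 0.37), 6-deoxoteasterone against 6-deoxocathasterone (0.51 to 1.05), 3-dehydro-6-deoxoteasterone against 6-deoxoteasterone (0.29 to 0.67), typhasterol against 3-dehydroteasterone (0.090 to 0.93) and 6-deoxocastasterone against 6-deoxotyphasterol (0.15 to 0.84), and in SAUR9 the 3-dehydroteasterone pair (0.18 to 0.61), 6-deoxoteasterone against 6-deoxocathasterone (0.17 to 0.74) and typhasterol against 3-dehydroteasterone (0.0061 to 0.43). Probe sets called against mock fell to between 5 and 24 for 6-deoxoteasterone (29 with all arrays), 16 and 50 for teasterone (62), 36 and 51 for 3-dehydro-6-deoxoteasterone (98), 78 and 131 for 3-dehydroteasterone (250), 6 and 17 for 6-deoxotyphasterol (34), 130 and 194 for typhasterol (312), 138 and 263 for 6-deoxocastasterone (343), 190 and 293 for castasterone (419) and 180 and 310 for brassinolide (454). They numbered 0 to 7 for campestanol (0) and 0 to 4 for 6-deoxocathasterone (0). A lone array was assumed to vary like the other groups.

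The letters A and B are not said to mark a shared batch, and the main fit did not take them as pairing. The A minus B differences correlated over 0.1 in 76 of 78 pairs of groups, with a median r of 0.317. A difference shared between the letters therefore stays in the spread of the main fit and can widen its intervals. The replicate block adds a term for the letter to the fit. With the replicate block, SAUR9 passed for the typhasterol pair (1.54, adjusted p = 0.000175 in limma), the C-6 average (0.67, 0.00233) and 6-deoxocastasterone against 6-deoxotyphasterol (1.23, 0.00523). Against mock, SAUR9 was also called for 6-deoxocathasterone and cathasterone, and SAUR-AC1 for cathasterone. Contrasts with mock chose the genes, so nothing is read from these calls against mock. With the block 917 probe sets were called for brassinolide (454 without it), 18 for the typhasterol pair (0 without it), 10 for the C-6 average (0) and 41 for 6-deoxocastasterone against 6-deoxotyphasterol (1). Against mock, the block fit called 6 (0.0341% of all tested probe sets) for 6-deoxocathasterone and 20 (0.114%) for cathasterone, where the main fit called 0. Over single arrays, 2 of 5 and 1 of 5 of the closest genes stayed.
With only the arrays compared in the fit, calls against mock were lost in SAUR-AC1 for 6-deoxoteasterone, teasterone, 3-dehydroteasterone, 6-deoxotyphasterol and 6-deoxocastasterone, and in SAUR9 for 6-deoxoteasterone, teasterone and 6-deoxotyphasterol. The SAUR9 call for 6-deoxoteasterone was also lost with a pseudocount of 20 (adjusted p = 0.167 in limma), quantile normalization (0.0508), median centring (0.0806) and no intensity trend (0.0536), that for 6-deoxotyphasterol with a pseudocount of 20 (0.118) and median centring (0.0670), and the SAUR-AC1 call for 6-deoxotyphasterol with a pseudocount of 20 (0.0872). The causes were not tested.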
